A study of Mus musculus with 7 samples.

Results

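The cyclins, the cyclin-dependent kinases (CDKs), the CDK inhibitors, the retinoblastoma pocket proteins and the E2F transcription factors were followed as 1 set of 48 genes, taken by symbol from a fixed list, out of 53458 annotated genes. Their transcripts were measured by RNA sequencing. The cells were long-term haematopoietic stem cells, or LT-HSCs, which can rebuild all blood lineages over long periods. They came from aged C57/BL6 mice and were sorted from bone marrow by the absence of lineage antigens, Flt3 and CD48 and the presence of Sca1, cKit and CD150. One group was wild type (WT, Srp72+/+, 4 libraries) and the other was heterozygous for Srp72 (Srp72+/-, here HET, 3 libraries), with 1 library per mouse as the series describes it. Both groups shared the strain and the sort, with the ages and the altered part of Srp72 not given in the sources used here. P-values measure only the spread between these libraries.

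Cyclins are the regulatory subunits that switch CDKs on. In G1 the D cyclins with CDK4 and CDK6 phosphorylate the pocket proteins, which frees E2F factors to transcribe the genes of DNA replication, and E, A and B cyclins with CDK2 and CDK1 then carry the cell through S phase and mitosis. Most adult HSCs rest outside the cycle. The inhibitors p27 (Cdkn1b) and p18 (Cdkn2c), the pocket proteins and low CDK6 are known brakes on their entry into it. Some other cyclins and CDKs, such as cyclin T with CDK9, act mainly on RNA polymerase II.

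In resting cells the promoters of cell cycle genes are held by complexes of pocket proteins, E2F and the MuvB proteins, which bind through E2F sites and through the cell cycle genes homology region (CHR). The letters TTTGAA were taken as the CHR, and TTTGGCGC, TTTCCCGC, TTTGCCGC and TTTCGCGC as E2F sites, all on both strands. CHR and E2F letters cannot overlap, while E2F letters on opposite strands can. RefSeq promoters on GRCm38.p6, from 250 bases before to 50 bases after a transcription start, were matched for 37 of the 48 genes (43 windows). The 11 genes without an entry were Ccnd1, Ccnd2, Rb1, E2f4, E2f5, Ccna2, Ccne2, Ccnh, Cdk19, Cdk5 and Cdk17. CHR letters were present in 10 of the 37 genes (27.0%), against 20.2% of 27025 genes with a promoter in the same table. E2F letters were present in 7 of the 37 (18.9%), against 2.60% of all. The 4 promoters printed here belong to genes of S phase and mitosis whose transcripts varied together over the libraries, and each shows the 200 bases before the start on the minus strand, 5′ to 3′, with the matches in capitals. They lie at chr10:69352913-69353112 (Cdk1), chr9:70421555-70421754 (Ccnb2), chr17:24251410-24251609 (Ccnf) and chr7:48881597-48881796 (E2f8).
Cdk1: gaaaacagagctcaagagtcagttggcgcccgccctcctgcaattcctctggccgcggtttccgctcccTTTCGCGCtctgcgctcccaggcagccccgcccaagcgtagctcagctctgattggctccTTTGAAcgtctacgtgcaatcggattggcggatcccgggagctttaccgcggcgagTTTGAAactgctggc
Ccnb2: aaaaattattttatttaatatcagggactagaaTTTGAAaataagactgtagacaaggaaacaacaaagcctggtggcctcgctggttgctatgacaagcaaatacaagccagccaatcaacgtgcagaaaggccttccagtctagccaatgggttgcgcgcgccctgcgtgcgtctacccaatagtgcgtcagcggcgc
Ccnf: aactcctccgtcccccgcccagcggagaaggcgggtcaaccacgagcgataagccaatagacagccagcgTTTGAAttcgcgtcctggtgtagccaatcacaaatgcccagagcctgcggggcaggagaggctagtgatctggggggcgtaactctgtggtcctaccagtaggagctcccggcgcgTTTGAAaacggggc
E2f8: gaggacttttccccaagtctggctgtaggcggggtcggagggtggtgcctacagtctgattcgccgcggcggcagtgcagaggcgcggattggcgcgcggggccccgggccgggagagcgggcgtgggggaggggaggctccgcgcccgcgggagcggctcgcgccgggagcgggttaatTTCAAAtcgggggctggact
In Cdk1 the E2F letters began at -131 and CHR letters at -71 and -15, counting the start base as 0. Ccnf held CHR letters at -130 and -14, Ccnb2 at -167 and, past the printed stretch, at 4, and E2f8 held their reverse complement at -20. E2f2, with several start sites, held both motifs in different windows, and Cdk2, E2f3, E2f7, Rbl1 and Cdkn2a held E2F letters. CHR letters also lay in Ccni, Cdk16, Cdkn2b, E2f3 and Rbl2, whose 3 highest libraries were not those of the printed genes. The 4 printed promoters are thus a choice, and a link of the letters to the shared levels was not tested. All of the above are matches of letters and not measured binding. For Ccnb1, Ccne1 and Cdk8, which had no match, the search says only that these letters were not in the window.

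Depth ran from 18054322 to 35247472 estimated reads per library. A floor of 3 counts equalled 0.0910 to 0.192 CPM, the unit used here for reads scaled to the same library total. Srp72, the targeted gene, measured 99.6, 136.6, 103.0 and 88.4 CPM from WT 1 to WT 4 and 71.9, 45.7 and 109.8 CPM from HET 1 to HET 3, so the groups overlapped. The summed CPM of 15 HSC markers was 207 in WT 2, against 2631 to 3324 in the other WT libraries and 1717 to 2972 in HET, so WT 2 went against its label as a stem cell library. The HSC marker Procr stood at 0.064 CPM in WT 2, with 9.0 to 43.9 CPM in all others. Neutrophil, erythroid, B cell and macrophage markers were highest in WT 2 and next highest in HET 1: the summed CPM of 12 neutrophil markers was 40408 and 12651, against 173 to 8901 in the other 5 libraries, that of 11 erythroid markers was 9123 and 6904, against 415 to 1620, and that of 12 B cell markers was 10463 and 4337, against 165 to 1357. The 10 macrophage markers summed to 274 CPM in WT 2, 124 CPM in HET 1 and 15.8 to 58.0 CPM elsewhere. The other mature lists ran differently: the 10 T and NK cell markers summed to 203 CPM in WT 2, 89.8 CPM in HET 3, 60.7 CPM in HET 1 and 24.8 to 34.4 CPM elsewhere, and the 10 megakaryocyte markers were lowest in WT 2 (53.0 CPM) and highest in HET 3 (1208 CPM). No matched marker of any list was at 0 in every library. Results are therefore given with all 7 libraries and with the 6 other than WT 2, and whether such transcripts set the values of the cell cycle genes was not tested. In bulk RNA, fewer cells of a type and less RNA per cell cannot be told apart.

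With all 7 libraries no cyclin, CDK, inhibitor, pocket protein or E2F gene was called between the genotypes at a false discovery rate (FDR) of 0.05. This held in edgeR and in DESeq2, though DESeq2 gave no adjusted p for E2f2 and so did not assess it. Of the 48 genes, 45 passed the filter on low counts. Cdkn2a and Ccna1 had 0 reads in every library, and Cdkn2b was at or below 1.47 CPM and did not pass this filter. With all 7 libraries 0 of 45 were called by edgeR's quasi-likelihood test with Benjamini-Hochberg adjustment over all genes (percent called over all 20314 tested genes: 0), and DESeq2 called 0 of them and 9 genes in all. At an unadjusted p below 0.05 there were 0 of 45, against 1.8% of all genes (1.01% higher and 0.788% lower). The fitted value was higher in HET for 23 of 45, against 49.3% of all genes, with a median log2 fold change of 0.00 (-0.01 over all genes). The fold changes ran from -0.44 (Ccnc) to 0.70 (E2f8) on the log2 scale, with a median standard error of 0.39.

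Without WT 2 the same test again called 0 of 45 (0 of 19856 genes, smallest adjusted p = 0.103 in edgeR), while 7 genes had an unadjusted p below 0.05, all with higher values in HET: E2f2, E2f8, Ccna2, Ccnb1, Ccnb2, Ccnf and Cdk8. That is 15.6% of the set, where 2.61% of all genes were higher at that level, 2.23% were lower and 4.84% were either. The fitted value was higher in 26 of 45 (53.1% of all genes), with a median log2 fold change of 0.19 (0.04 over all genes). DESeq2 on the same 6 libraries called 70 genes (0.353% of those tested), among them 1 of the set, E2f8. The count of 7 depended on single libraries: with a further library left out it was 1 without HET 1 (2.22% of the set, against 4.03% of all genes in that fit) and 1 without WT 4 (2.22% against 3.49%), so there it lay below the share of all genes. It was 12 without HET 2 (26.7% against 6.58%), 5 without WT 1 (11.1% against 4.65%), 6 without WT 3 (13.3% against 5.30%) and 7 without HET 3 (15.6% against 7.33%).

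**Figure D1:**
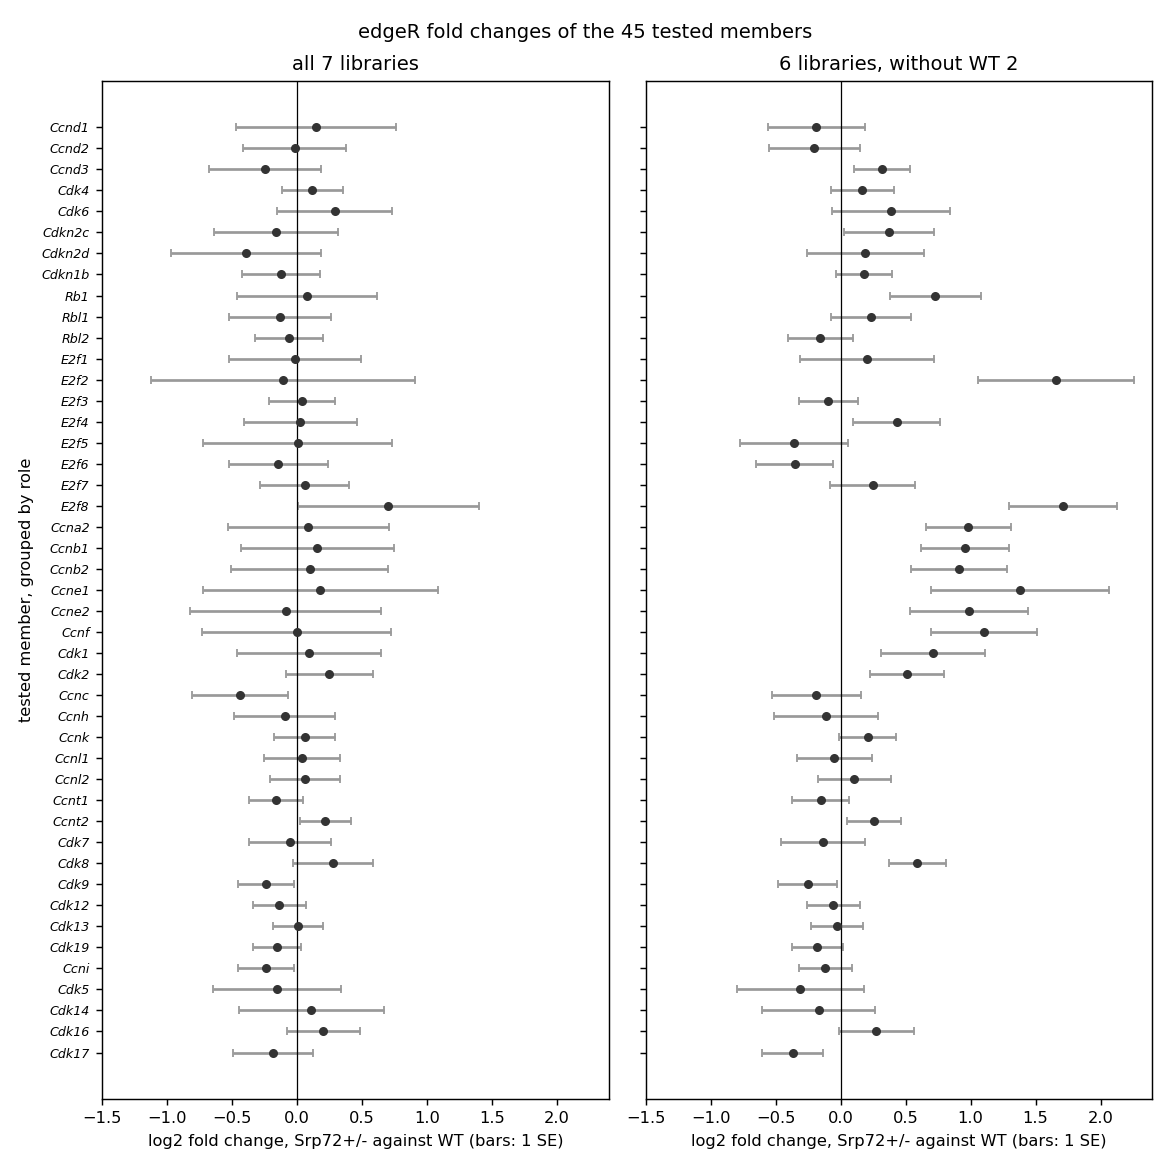
Log2 fold changes (HET against WT, x axis) of the 45 tested genes, grouped by role on the y axis, from the edgeR fit of all 7 libraries (left) and of the 6 libraries other than WT 2 (right). Points are fitted values and bars 1 standard error. On the left the points lie between -0.44 and 0.70, and on the right E2f8, E2f2 and the E, A, B and F cyclins stand to the right of the other genes.

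The D cyclins, which link growth signals to the cycle, differed from library to library more than between the genotypes. Ccnd1 (ENSMUSG00000070348, chromosome 7, 144929931 to 144939925, minus strand of GRCm38) measured 72.7, 7.67, 26.0 and 39.6 CPM from WT 1 to WT 4 and 30.7, 41.5 and 48.8 CPM from HET 1 to HET 3. WT 1 was highest and WT 2 lowest, and all HET values lay inside the WT range. Ccnd2 (ENSMUSG00000000184, chromosome 6, 127125162 to 127152193, minus strand) measured 305, 114, 121 and 238 CPM across WT and 150, 170 and 256 CPM in HET, again with WT 1 highest and WT 2 lowest. Ccnd3 (ENSMUSG00000034165, chromosome 17, 47505051 to 47599691, plus strand) ran the other way, at 88.5, 312, 125 and 109 CPM across WT and 137, 117 and 147 CPM in HET. WT 2 was highest for Ccnd3 and WT 1 lowest. The log2 fold changes with all 7 libraries were 0.14 ± 0.62 (SE) for Ccnd1, -0.02 ± 0.40 for Ccnd2 and -0.24 ± 0.43 for Ccnd3, each with an adjusted p = 0.9998 in edgeR. Without WT 2 they were -0.19 ± 0.37, -0.20 ± 0.35 and 0.32 ± 0.22, so Ccnd1 and Ccnd3 had opposite signs in the 2 fits, and with any 1 library left out Ccnd2 ran from -0.29 to 0.28.

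Genes were compared on a scale of CPM per kilobase of the longest coding transcript, which counts the reads of all transcripts of a gene. On it Ccnd3 was the most abundant D cyclin in 6 of the 7 libraries. Its share of the summed D cyclin level was 38.3, 88.0, 69.4 and 51.8% in WT 1 to WT 4 and 67.1, 59.5 and 56.5% in HET 1 to HET 3. In WT 1 Ccnd2 was ahead with 44.0%. The per-length ratio of Ccnd3 to Ccnd2 was 0.87, 8.19, 3.09 and 1.38 in WT and 2.75, 2.07 and 1.72 in HET, so the HET values lay inside the WT range. WT 2, with the fewest HSC marker transcripts, had the highest Ccnd3 share, and WT 1, with the most, had the lowest.

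**Figure D2:**
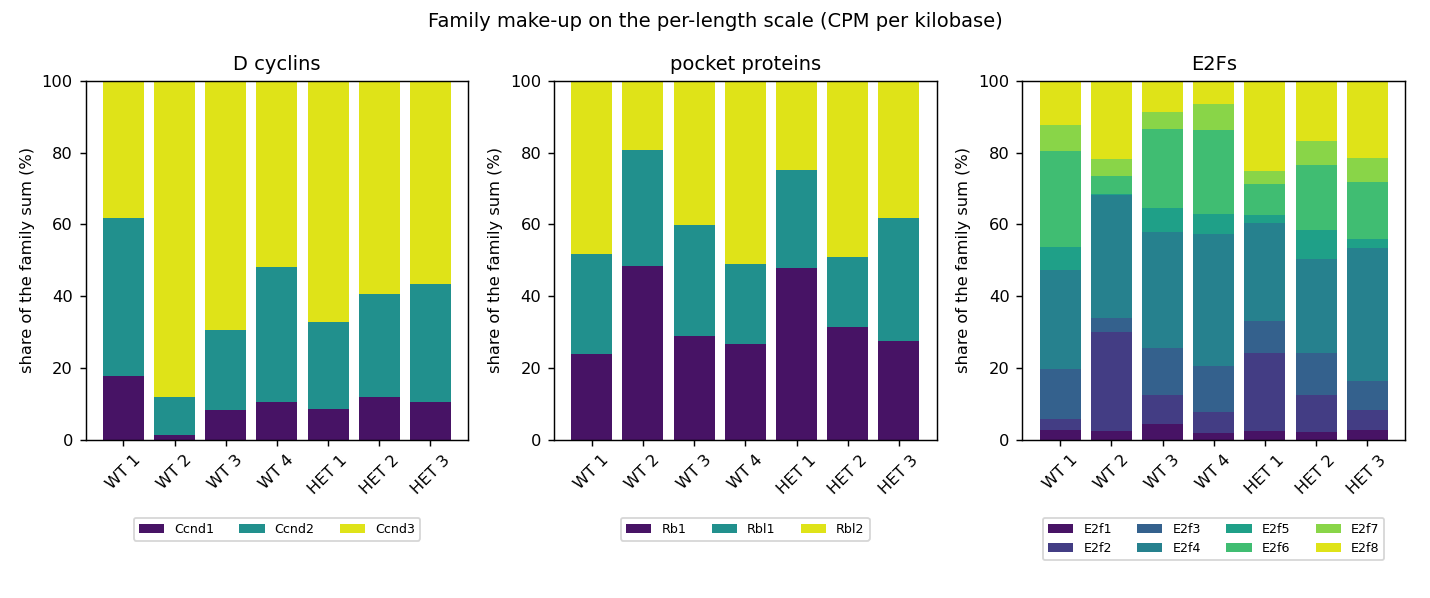
Share (%, y axis) of each gene in the summed level of its family on the per-length scale, for the D cyclins (left), the pocket proteins (middle) and the E2Fs (right), with 1 bar per library on the x axis. Ccnd3 makes up 38.3% of the D cyclin level in WT 1 and 88.0% in WT 2, and Rb1 makes up 48.3% of the pocket protein level in WT 2 and 47.8% in HET 1, against 24.0 to 31.4% in the other libraries.

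Cdk6, Ccnl1, Ccnd3 and Cdk4 were the most abundant genes of the set per length, with means of 89.4, 80.8, 70.1 and 56.5 CPM per kilobase over the 7 libraries, differences that lay within the spread over libraries. The place of Cdk6 at the top rested on HET 3, without which its mean was 73.3 CPM per kilobase and that of Ccnl1 83.0. Cdk6 (ENSMUSG00000040274, chromosome 5, 3341485 to 3531008, plus strand) encodes the G1 kinase linked to the exit of HSCs from rest. It measured 994, 1125, 951 and 692 CPM across WT and 637, 666 and 2145 CPM in HET. HET 3 alone lay above every WT library, and HET 1 and HET 2 lay below every one. The WT mean was 941 ± 181 CPM (SD, n = 4) and the HET mean 1149 ± 863 CPM (SD, n = 3), and the log2 fold change was 0.29 ± 0.44 (SE, edgeR adjusted p = 0.9998). Without HET 3 it was -0.54. Cdk4 (ENSMUSG00000006728, chromosome 10, 127063534 to 127067920, plus strand), the partner kinase, was steadier, at 131, 122, 90.4 and 104 CPM across WT and 115, 98.8 and 150 CPM in HET (log2 fold change 0.12 ± 0.23 SE, and -0.074 without HET 3). Per length, Cdk6 exceeded Cdk4 1.18- to 1.87-fold in the WT libraries, while the ratio was 0.99, 1.2 and 2.54 in HET 1 to HET 3.

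Among the INK4 inhibitors, which block CDK4 and CDK6, the senescence-linked genes Cdkn2a and Cdkn2b were the lowest per length. Cdkn2a, which encodes p16 and ARF, had 0 reads, which allows at most the floor of 0.0910 to 0.192 CPM by counting error alone. Its neighbour Cdkn2b (p15) measured 1.47 CPM in WT 2 and 1.01 CPM in WT 3, 0.11 CPM in HET 1 and 0.13 CPM in HET 2, and had 0 reads in the remaining 3. The values of WT 2 and WT 3 were above the floors of those libraries (0.192 and 0.144 CPM) and those of the HET libraries were not. Cdkn2c (p18, ENSMUSG00000028551, chromosome 4, 109660876 to 109667189, minus strand) measured 11.3, 31.3, 14 and 8.45 CPM across WT and 12.8, 12.4 and 18.3 CPM in HET. The WT 2 value stood above all others, and the log2 fold change was -0.16 ± 0.48 (SE) with it and 0.37 ± 0.35 without it. Cdkn2d (p19) ranged from 12.4 (HET 3) to 57.5 CPM (WT 2), with log2 fold changes of -0.39 and 0.19 in these fits.

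Cdkn1b (ENSMUSG00000003031, chromosome 6, 134920401 to 134925513, plus strand), which encodes the CDK inhibitor p27, measured 42.6, 76.9, 39.6 and 37.8 CPM across WT and 50.1, 43.5 and 42.0 CPM in HET. Outside WT 2 the 6 libraries lay between 37.8 and 50.1 CPM. The log2 fold change was -0.12 ± 0.30 (SE) with all libraries and 0.18 ± 0.22 without WT 2, neither past the test (edgeR adjusted p = 0.9998 and 0.985). Of the other KIP inhibitors, which belong to the wider pathway, Cdkn1a (p21, a target of p53) measured 3.25, 7.29, 17.5 and 3.51 CPM across WT and 3.44, 10.2 and 4.61 CPM in HET. Cdkn1c (p57, an inhibitor with a known part in HSC rest) measured 19.5, 0.384, 4.32 and 17.4 CPM across WT and 9.0, 12.5 and 7.95 CPM in HET. For both, the HET values lay inside the WT range.

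Rbl2, which encodes p130, the pocket protein of resting cells, measured 132, 76.7, 80.2 and 102 CPM across WT and 82.0, 114 and 85.2 CPM in HET (ENSMUSG00000031666, chromosome 8, 91070057 to 91123844, plus strand). The HET values lay inside the WT range, and the log2 fold change was -0.06 ± 0.26 (SE, edgeR adjusted p = 0.9998), between -0.24 and 0.12 with any 1 library left out. Rb1, which encodes the retinoblastoma protein, measured 62.1, 182, 54.7 and 50.5 CPM across WT and 149, 69.2 and 58.2 CPM in HET. The high values were those of WT 2 and HET 1, the pair with the most neutrophil, erythroid and B cell marker transcripts. The per-length ratio of Rb1 to Rbl2 was 2.51 in WT 2 and 1.92 in HET 1 and between 0.50 and 0.72 in the other 5 libraries. Rbl1, which encodes p107, ranged from 43.7 (WT 4) to 128 CPM (WT 2), with a log2 fold change of -0.13.

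**Figure D3:**
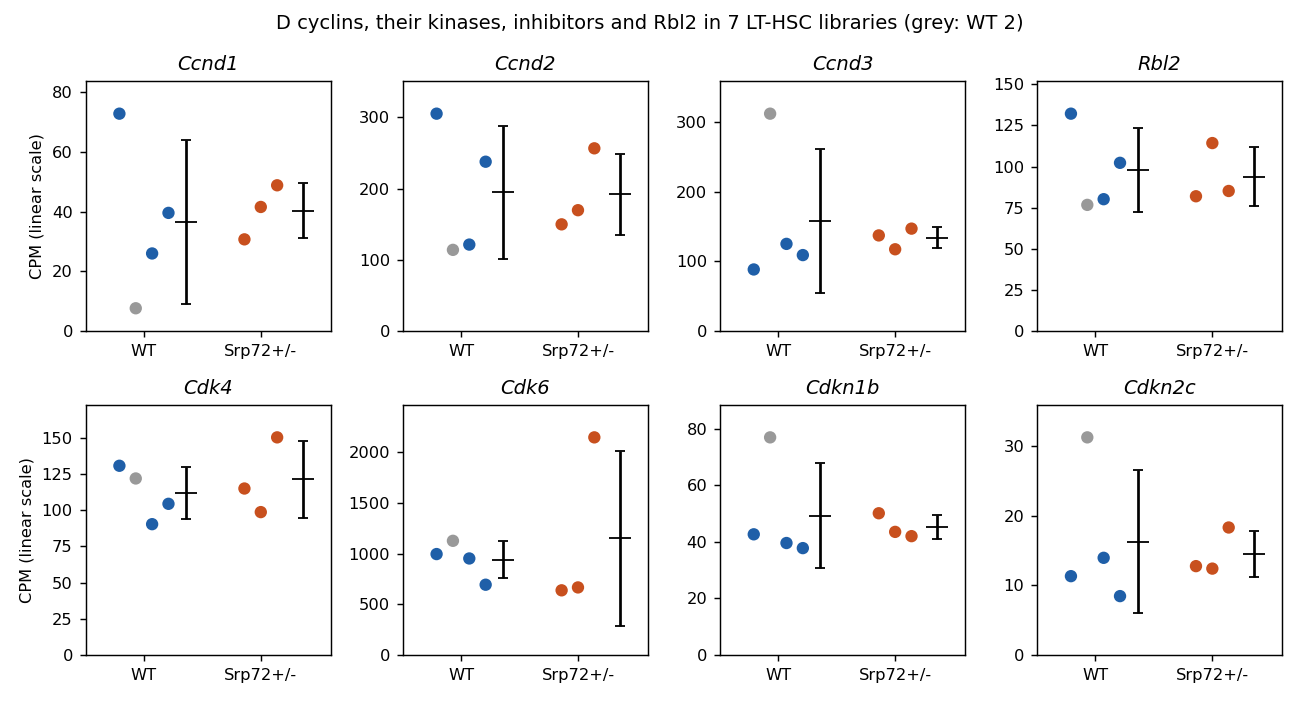
CPM (linear y axes) of the D cyclins, Cdk4, Cdk6, Cdkn1b, Cdkn2c and Rbl2 in the 4 WT and 3 HET libraries. Points are libraries in the order of their numbers, WT 2 is grey, and the bars beside them give the mean ± SD. In every panel the groups overlap, WT 2 lies highest for Ccnd3, Cdkn1b and Cdkn2c, and HET 3 lies highest for Cdk6 at 2145 CPM.

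Of the E2F factors, the activator E2f2 had the widest range of all 45 tested genes. E2f2 (ENSMUSG00000018983, chromosome 4, 136172394 to 136196057, plus strand) measured 12.2, 234, 33.1 and 21.1 CPM across WT and 137, 35.7 and 36.5 CPM in HET, a 19.3-fold range. WT 2 and HET 1 were high, and without WT 2 every HET library lay above every WT library by a narrow margin (35.7 against 33.1 CPM). The log2 fold change was -0.11 ± 1.02 (SE) with all libraries, 1.66 ± 0.60 without WT 2 (edgeR, unadjusted p = 0.0241, adjusted p = 0.977) and 0.71 without both WT 2 and HET 1. E2f1 ranged from 4.00 to 11.3 CPM and E2f3 from 36.5 to 62.3 CPM.

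E2f8, an atypical E2F that represses E2F targets late in the cycle, had the largest fold change of the set with all 7 libraries and without WT 2. E2f8 (ENSMUSG00000046179, chromosome 7, 48866429 to 48881596, minus strand) measured 39.5, 143, 27.0 and 18.7 CPM across WT and 123, 44.8 and 111 CPM in HET. WT 2 was highest, and every HET library lay above WT 1, WT 3 and WT 4. The WT mean was 57.2 ± 58.1 CPM (SD, n = 4), or 28.4 ± 10.5 CPM (SD, n = 3) without WT 2, and the HET mean 93.0 ± 42.2 CPM (SD, n = 3). The log2 fold change was 0.70 ± 0.70 (SE, edgeR adjusted p = 0.9998) with all libraries and 1.71 ± 0.41 without WT 2 (edgeR, unadjusted p = 0.00251, adjusted p = 0.977). DESeq2 gave an adjusted p = 0.0235 on those 6 libraries, while over the other edgeR settings without WT 2 the adjusted p ran from 0.578 to 0.9999 and the log2 fold change from 1.46 to 2.04. E2f7, its atypical relative, ranged from 22.8 (WT 3) to 50.7 CPM (HET 3), with a log2 fold change of 0.06.

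The repressor E2Fs showed no common direction. E2f4, the E2F bound to pocket proteins in resting cells, measured 122 CPM in WT 2 and 104 CPM in HET 3 and between 38.3 and 72.8 CPM elsewhere. E2f5 lay between 4.98 and 10.5 CPM in 6 libraries and was at 0.895 CPM in WT 2, and E2f6 was lowest in WT 2 as well, at 21.7 CPM, against up to 56.2 CPM in WT 1. Their log2 fold changes were 0.03, 0.00 and -0.14 with all libraries and 0.43, -0.36 and -0.35 without WT 2.

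The cyclins and kinases of S phase and mitosis varied together over the libraries. For all 8 tested genes of this kind (Ccna2, Ccnb1, Ccnb2, Ccne1, Ccne2, Ccnf, Cdk1 and Cdk2), the 3 highest libraries were WT 2, HET 1 and HET 3. The same was true of 14 of the 45 tested genes of the set (31.1%) and of 5.07% of all 20314 genes, a count chosen after the values were seen. Mki67, a proliferation marker, had the same top libraries, at 462, 2079, 559 and 332 CPM across WT and 1445, 624 and 1038 CPM in HET. The summed CPM of 26 proliferation genes was 2003, 6083, 2047 and 1434 in WT and 4087, 2021 and 3767 in HET.

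Ccna2 (ENSMUSG00000027715, chromosome 3, 36564865 to 36572150, minus strand), the cyclin of S phase, measured 91.7, 344, 93.9 and 46.9 CPM across WT and 190, 107 and 162 CPM in HET. Apart from WT 2, every HET library lay above every WT library. The log2 fold change was 0.09 ± 0.62 (SE) with all libraries and 0.98 ± 0.32 without WT 2 (edgeR, unadjusted p = 0.0141, adjusted p = 0.977). Ccnb1 (ENSMUSG00000041431, chromosome 13, 100778650 to 100786570, minus strand), which with CDK1 drives mitosis, measured 27.7, 102, 34.1 and 15.8 CPM across WT and 59.2, 34.6 and 56.5 CPM in HET. HET 2 and WT 3 were almost level, at 34.6 and 34.1 CPM, and the log2 fold change was 0.16 ± 0.59 (SE) with all libraries and 0.96 ± 0.34 without WT 2. Ccnf, an F-box cyclin that directs protein degradation in G2, measured 15.6, 72.7, 14.8 and 8.54 CPM across WT and 40.6, 15.4 and 27.6 CPM in HET, with overlap between HET 2 and WT 1. Its log2 fold change was -0.00 ± 0.73 (SE) with all libraries and 1.10 ± 0.41 without WT 2. The E cyclins, which start DNA replication, were the lowest of this group per length, and Ccne1 was at 23.2 CPM in WT 2 and 20.4 CPM in HET 1, against 2.74 to 5.76 CPM elsewhere. Ccne2 ranged from 6.67 (WT 3) to 42.6 CPM (WT 2). Ccnb2, the second mitotic B cyclin, measured 37.5, 118, 30.3 and 20.5 CPM across WT and 71.9, 29.4 and 63.9 CPM in HET, with overlap through HET 2. The kinase genes Cdk1 and Cdk2 ranged from 16.6 (HET 2) to 71.0 CPM (WT 2) and from 41.9 (WT 1) to 90.4 CPM (HET 1), with log2 fold changes of 0.71 and 0.51 without WT 2.

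**Figure D4:**
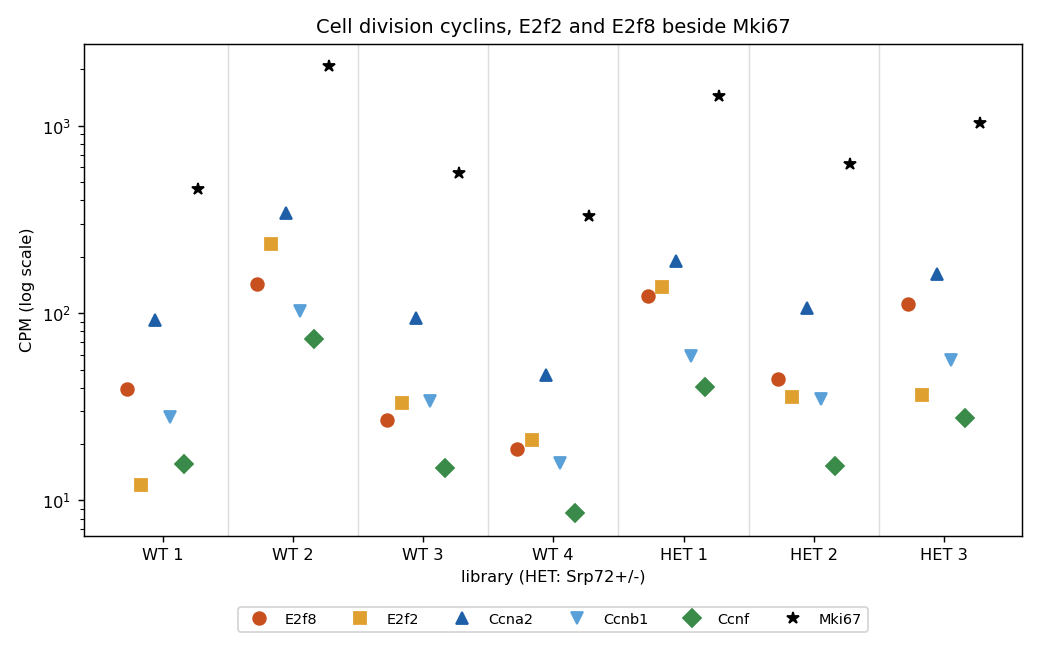
CPM (log y axis) of E2f8, E2f2, Ccna2, Ccnb1 and Ccnf with Mki67 in each of the 7 libraries (x axis), 1 symbol per gene. Every gene is higher in WT 2, HET 1 and HET 3 than in the other libraries, with WT 4 lowest for all but E2f2, for which WT 1 is lowest.

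HET 1 and HET 3 differed in what accompanied these levels. HET 1 had 12651 summed CPM of neutrophil and 6904 of erythroid markers, whereas HET 3 had 1236 and 501, inside the range of WT 1, WT 3 and WT 4 (173 to 8901 and 415 to 627), and its HSC marker sum was 2972. Its T and NK cell marker sum (89.8 CPM) was above that of WT 1, WT 3 and WT 4 (24.8 to 31.8 CPM) and of HET 1 (60.7 CPM), and its megakaryocyte marker sum (1208 CPM) was above theirs too (467 to 879 CPM in WT, 476 CPM in HET 1). The part of these transcripts in the division gene levels was not tested. HET 2, the third heterozygous library, had division gene levels near those of WT 1 and WT 3, with Ccna2 at 107 CPM and Ccnb2 at 29.4 CPM. Without both WT 2 and HET 1 the log2 fold changes were 1.46 for E2f8 (edgeR, unadjusted p = 0.0101), 0.80 for Ccna2, 0.82 for Ccnb1, 0.67 for Ccnb2, 0.73 for Ccnf and 0.56 for Cdk8. Only E2f8 then kept an unadjusted p below 0.05, which is 2.22% of the set, under the 4.03% of all genes at that level in the same fit.

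Most transcription cyclins and CDKs varied little over the libraries. Of the 15 tested genes whose highest library was less than 2 times the lowest, 10 were from this group and the others were Cdk4, Rbl2, E2f3, Ccni and Cdk16. Cdk9 (ENSMUSG00000009555, chromosome 2, 32705784 to 32713076, minus strand), the kinase that releases paused RNA polymerase II, measured 46.2, 43.3, 46.5 and 45 CPM across WT and 42.8, 30.6 and 41.8 CPM in HET. Cdk19 (ENSMUSG00000038481, chromosome 10, 40339564 to 40483818, plus strand), a kinase of the Mediator complex, measured 113, 93.0, 96.0 and 94.5 CPM across WT and 87.0, 88.7 and 91.2 CPM in HET. By CPM, in both genes every HET library lay below every WT library, though narrowly for Cdk9 (42.8 in HET 1 against 43.3 CPM in WT 2). They were the 2 of 45 genes (4.44%) whose groups did not overlap with all 7 libraries, where 1.49% of all genes did so in this direction, 2.08% in the other and 3.57% in either. The log2 fold changes were -0.24 ± 0.22 (SE) for Cdk9 and -0.15 ± 0.18 for Cdk19, and neither passed the test (edgeR adjusted p = 0.9998).

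Cdk8 (ENSMUSG00000029635, chromosome 5, 146231230 to 146302874, plus strand), the close relative of Cdk19 in Mediator, had values in the other direction, at 28.4, 58.3, 33.0 and 28.1 CPM across WT and 46.7, 44.8 and 42.9 CPM in HET. By CPM the 3 HET libraries were close together and above WT 1, WT 3 and WT 4, while WT 2 was highest of all. By TPM Cdk8 stood at 4.32, 7.04, 7.30 and 4.14 across WT and 7.32, 10.5 and 5.82 in HET. There HET 3 lay below WT 2 and WT 3. The log2 fold change was 0.28 ± 0.30 (SE) with all libraries, or 0.11 with a transcript length offset. Without WT 2 the log2 fold change was 0.59 ± 0.22 (edgeR, unadjusted p = 0.0246, adjusted p = 0.977). Without WT 2 the groups did not overlap for 5 genes with higher values in HET (E2f2, E2f8, Ccna2, Ccnb1 and Cdk8; 4.74% of all genes) and for 2 with lower values, again Cdk9 and Cdk19 (5.33% of all genes, and 10.1% in either direction).

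Ccnc, the cyclin partner of CDK8 and CDK19, had the smallest p of the set with all libraries, at 22.6, 38.8, 23.2 and 20.8 CPM across WT and 26.7, 19.9 and 11.7 CPM in HET. WT 2 was highest and HET 3 lowest, and the log2 fold change was -0.44 ± 0.37 (SE, edgeR, unadjusted p = 0.271). Ccnt2, a partner of CDK9, measured 97.1, 95.3, 76.5 and 85.6 CPM across WT and 115, 92.4 and 102 CPM in HET (log2 fold change 0.22 ± 0.20 SE). Ccnl1, a cyclin of the splicing machinery, measured 168, 139, 256 and 129 CPM across WT and 170, 218 and 146 CPM in HET, inside the WT range. Ccni, an atypical cyclin, measured 131, 184, 142 and 140 CPM across WT and 140, 107 and 134 CPM in HET, with a log2 fold change of -0.24 ± 0.22 (SE). Cdk7, Cdk12, Cdk13, Ccnh, Ccnk, Ccnl2 and Ccnt1, further genes of transcription and splicing, had log2 fold changes between -0.16 and 0.06. Of the remaining atypical kinases, Cdk14 was at 4.73 CPM in WT 2 and up to 20.8 CPM in WT 1, and Cdk17 was at 70.3 and 163 CPM in the same libraries, while Cdk5 ranged from 4.66 (HET 1) to 13.5 CPM (WT 3) and Cdk16 from 28.8 (HET 1) to 56.1 CPM (HET 3).

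**Figure D5:**
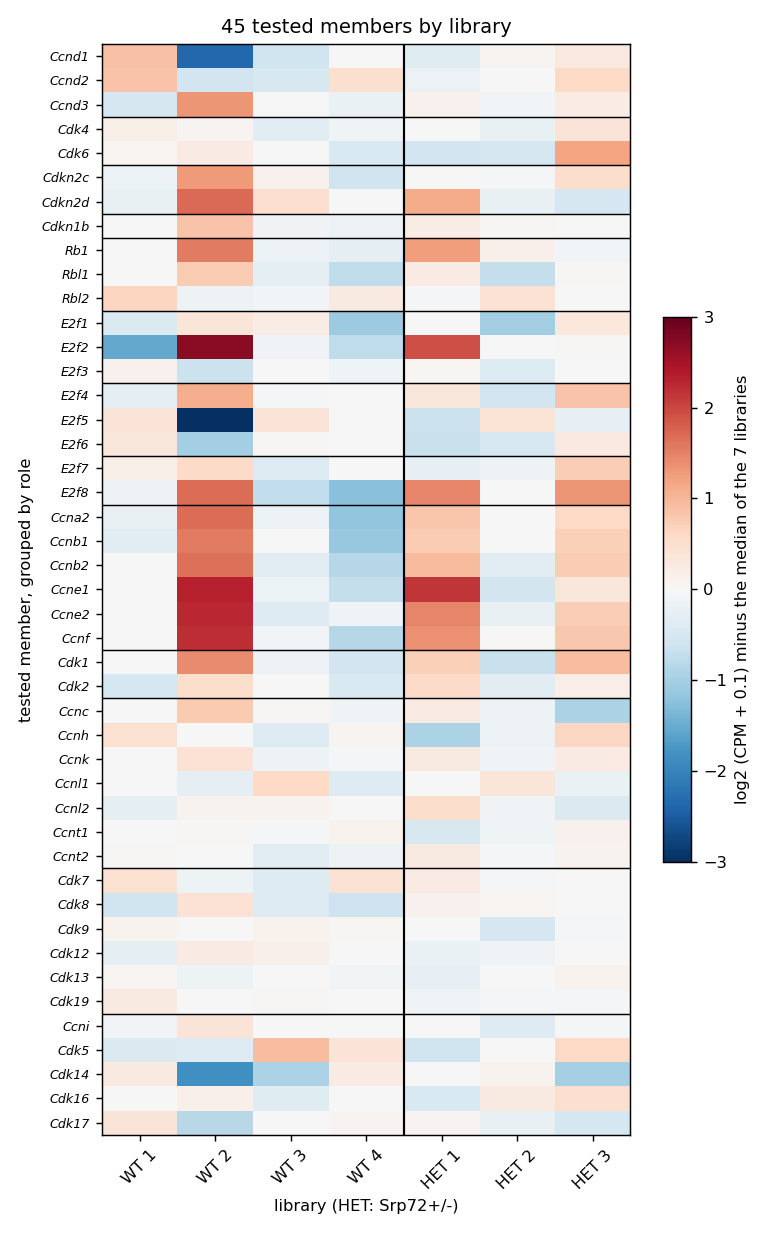
Log2 (CPM + 0.1) of each of the 45 tested genes (rows, grouped by role) minus its median over the 7 libraries (columns), with the colour scale from -3 to 3. WT 2 holds the highest value of 22 genes and the lowest of 8, WT 4 holds the lowest of 13, and the rows of the transcription cyclins and kinases are the palest. Such counts were not made over all genes.

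The other genes of the pathway, a list of 54 matched and tested genes, also held none that passed the test. With all libraries 0 of 54 were called by edgeR and 0 by DESeq2, 0 had an unadjusted p below 0.05 and 26 had a higher fitted value in HET. Those with the smallest p were Cdk5rap3 (log2 fold change 0.68), Ccny (-0.36), Cdk10 (-0.52) and Cables2 (0.36). The groups did not overlap for 2 of the 54 (3.70%, against 3.57% of all genes), Ccny and Cables2. Ccny, a membrane cyclin, measured 87.7, 83.8, 69.1 and 76.6 CPM across WT and 59.3, 63.7 and 62.4 CPM in HET, the lower group. Cables2, which encodes a CDK-binding protein, measured 26.8, 35.7, 35.0 and 26.8 CPM across WT and 37.3, 40.2 and 42.3 CPM in HET, the higher group. Without WT 2, 38 of 54 (70.4%) had a higher fitted value, against 53.1% of all genes, and 0 were called. Cdc25c (1.38), Foxm1 (0.89), Tfdp1 (0.52) and Cdc25b (1.19) had an unadjusted p below 0.05 in edgeR. That is 7.41% of the 54, all higher in HET, against 2.61% of all genes higher and 4.84% in either direction. Foxm1, a transcription factor of mitotic genes, measured 38.8, 119, 52.7 and 25.6 CPM across WT and 71.5, 50.2 and 95.2 CPM in HET. Tfdp1, the DNA-binding partner of E2F, measured 85.1, 218, 81.0 and 81.9 CPM across WT and 122, 101 and 132 CPM in HET, so that without WT 2 its groups did not overlap. It was 1 of 5 such genes of the 54 without WT 2 (9.26%, against 10.1% of all genes).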

How the data were processed

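LT-HSC RNA was amplified with a NuGEN Ovation kit and made into libraries with an Illumina TruSeq kit, per the labels' protocols. The authors deposited, for each transcript, estimated counts, TPM and an effective length (in bases), made with Salmon 0.12.0 per the submitters' processing notes, which name the builds GRCm38.p6 and mm10. With the strand setting and transcript release not given in the sources used here, values of genes overlapping on the other strand are uncertain, as are those of genes whose close copies share reads. Deposited estimated counts were summed per gene with GENCODE M21 on GRCm38 (112 of 136288 transcripts, 0.0413 to 0.0622% of reads, had no match) and rounded to whole numbers. Deposited TPM served to choose genes above 50 TPM and for the values given in TPM. The order of the D cyclins and of Cdk4 and Cdk6 was taken from CPM per kilobase. Deposited effective lengths served for a length offset. Genes were filtered with filterByExpr (minimum count 10, total 15), scaled by TMM and tested with edgeR 4.0.16 (robust quasi-likelihood, FDR threshold 0.05) in R 4.3.3. DESeq2 1.42.0 was an alternative. CPM use TMM library sizes and are relative, and without molecular identifiers floors cover counting error only. The procedure was tested on simulated data with changes larger than any fold change of the set. That test does not show how well changes of the size reported here would be found.

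The 48 genes, the marker lists and the pathway list were chosen with earlier results of these data known. Named with every library's value were the D cyclins, Cdk4, Cdk6, Cdkn1b, Cdkn2c and Rbl2, the 6 genes with the smallest p in each of the 2 fits, genes whose groups did not overlap and genes above 50 TPM. In the wider pathway the 4 with the smallest p in each fit, Cdkn1a and Cdkn1c were named; Ccny, Cables2, Foxm1, Tfdp1 and these inhibitors are given in every library. Other genes are given by role, and those singled out beyond this rule (Rb1, Ccnb2, Ccne1, E2f4, E2f5 and E2f6 among them) were chosen after their values were seen. Ahsp and Skp1 matched no symbol.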

Additional observations from a re-analysis of the deposited data

Results flagged for a closer look

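In the 4 WT libraries 14 of the 45 tested genes had 1 library that stood far from the other WT libraries by Dixon's ratio. The ratio is the gap of that library to the nearest of the others divided by the range, with a critical value of 0.83. For normally distributed values chance alone flags about 2.25 of 45. The share over all genes was not computed, so the count cannot be read as particular to this set. The 3 HET libraries are too few for this check. In 13 of the 14 the distant library was WT 2, each time as the highest value. The ratios were 0.836 for Ccnd3, 0.875 for Cdkn1b, 0.912 for Rb1, 0.906 for E2f2, 0.872 for E2f4, 0.834 for E2f8, 0.842 for Ccna2, 0.912 for Ccne1, 0.941 for Ccne2, 0.890 for Ccnf, 0.837 for Cdk1, 0.866 for Ccnc and 0.836 for Cdk8. The only other was Cdk19, where WT 1 (113 CPM) stood above the rest with a ratio of 0.845. The 13 flags share 1 library, so they are not independent of each other.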

How the results depend on the processing

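The fit of all 7 libraries was repeated with RLE scaling, no filter, a stricter filter, DESeq2, the replicate block and a transcript length offset. It was also repeated with each library left out and with WT 2 and HET 1 left out together. In these runs 0 genes of the set and 0 of the wider pathway were called. DESeq2 called 9 genes overall and leaving out single libraries gave 0 to 1. The number with a higher fitted value ranged from 13 to 26 with 1 library left out (13 without HET 3, 14 without WT 3 or WT 4). Without WT 2, DESeq2 called 70 genes and 1 of the set, E2f8, and leaving out a further library gave 0 to 1 genes, none of the set. These further fits of the 6 libraries were chosen after seeing the data, and the causes were not tested.

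Of 280 log2 fold changes of 20 named genes under the alternatives, 237 kept their direction, and 7 genes (Ccnc, Ccnt2, Ccni, Cdk9, E2f8, Cdk8 and Cdk19) kept it in all of them. With 1 library left out the values of the others ran from -0.19 to 0.72 for Ccnd1, -0.29 to 0.28 for Ccnd2, -0.44 to 0.32 for Ccnd3, -0.074 to 0.23 for Cdk4, -0.54 to 0.56 for Cdk6, -0.26 to 0.18 for Cdkn1b, -0.41 to 0.37 for Cdkn2c, -0.24 to 0.12 for Rbl2, -1.09 to 1.66 for E2f2, -0.24 to 0.98 for Ccna2, -0.16 to 0.96 for Ccnb1, -0.41 to 1.10 for Ccnf and -0.15 to 0.27 for Ccnl1. Without WT 2 and HET 1 together the reversed values were -0.028 for Ccnd1, 0.30 for Ccnd3, 0.10 for Cdkn1b, 0.45 for Cdkn2c, 0.71 for E2f2, 0.73 for Ccnf and -0.020 for Ccnl1. Ccnf was at 0.0089 with no filter, and Rbl2 at 0.14 with the length offset.

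The replicate numbers gave no sign of pairs: same-numbered WT and HET libraries had correlations of -0.36, -0.20 and 0.02, and no library correlated best with its own number. The highest correlation was 0.45, between WT 2 and HET 1. With so few libraries this check cannot exclude that the numbers mark pairs. With the replicate block 0 genes were called, 0 of the set and 0 of the wider pathway, 21 of 45 had a higher fitted value, and the reversed values were 0.22 for Ccnd2, -0.095 for Cdk6, 0.24 for E2f2, 0.12 for Ccnf and -0.050 for Ccnl1. On the 6 libraries other than WT 2 the block called 0 genes, and 4 of the set (8.89%) had an unadjusted p below 0.05 in edgeR, against 2.86% of all genes. With 3 or 4 libraries a group and a biological coefficient of variation of 0.628 (0.516 without WT 2), the standard errors limit what could be seen. Cdkn2b entered the fits with no filter and with a HET library left out, with no call.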

Other observations

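The deposited TPM order the genes differently from CPM per kilobase of the longest coding transcript. Summed per gene, TPM put Ccni first (98.8 on average), Cdk4 second (97.2) and Cdk6 9th (34.4), whereas per length Cdk6 was first, or second to Ccnl1 without HET 3. By TPM Cdk4 lay above Cdk6 in every library, and Ccnd2 lay above Ccnd3 in WT 1 and WT 4. Short transcripts held much of some TPM values: for Rb1, 5th by TPM and 17th per length, transcripts under 500 bases held 78.8 to 89.5% of the gene's TPM in the 7 libraries. For Ccnd2 the transcript Ccnd2-203 held 43.7 of 88.6 TPM in WT 1 from 11 reads.

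For some genes most estimated reads lay on transcripts that are not annotated as protein coding. The share of reads on protein-coding transcripts was 13 to 31% for Cdk4, 0 to 37.6% for E2f6, 0 to 18.0% for Ccnl1 and 1.6 to 15.6% for Ccnl2, against 99.5 to 99.9% for Cdk6 and 100% for Cdkn1b and Cdkn2c. The share was also incomplete for other genes, such as Cdk2 (30.1 to 53.6%), Cdk8 (42.0 to 70.3%), Cdk9 (35.6 to 84.1%) and Cdk19 (37.0 to 95.5%). A level per gene thus does not give the level of coding RNA for genes with a low or varying share.

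WT 4 had the highest value of 0 of the 45 tested genes and the lowest of 13. Among the 13 were the pocket protein genes Rb1 and Rbl1, E2f1, E2f8 (18.7 CPM), Ccna2 (46.9 CPM), both B cyclins, Ccne1 and Ccnf. The same count was not made over all genes, so whether it is particular to this set was not tested.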
